A study of Homo sapiens with 3 samples.

Results

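The Wnt ligands, their receptors and the first components that carry the signal were examined in HCT116 cells after knockdown of SMARCA4, which encodes the BRG1 ATPase of the SWI/SNF remodeler. The set holds 47 genes, whose probes were taken by gene name with no threshold on a measured value: 17 WNT ligands, 2 genes of ligand secretion, 10 Frizzled receptors, 2 coreceptors, 8 secreted inhibitors, 3 Dishevelled transducers and 5 genes of the beta-catenin destruction complex. These genes were read by 58 of the 58201 different probes on the array, and the array files name 43317 genes in all. HCT116 is a human colorectal cancer cell line that carries a stabilizing mutation in the beta-catenin gene. The cells were transfected with small interfering RNA (siRNA) using a lipid reagent and measured as 3 groups of 1 array each. SMARCA4-KD1 and SMARCA4-KD2 received siRNA against SMARCA4, and NC received a scrambled negative control as the study describes it. Hours between transfection and RNA extraction are not given in the sources used here. The sources used here do not say which siRNA belongs to which knockdown.

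The sample titles name SMARCA4 and the treatment field names PRMT1, so both genes were read first. The signal of the SMARCA4 probe was 14026 in NC, 3960.2 in SMARCA4-KD1 and 4129 in SMARCA4-KD2, which left 26.6% and 28.8% of the NC level. PRMT1 was above NC in both, at 0.27 and 0.37 on the log2 scale, while SMARCA4 was below it. The samples labelled SMARCA4-KD1 and SMARCA4-KD2 take their number from the treatment field. From 26609 to 27527 probes were detected well above background per array, and 0 spots were saturated. The knockdowns were hybridized on slide 1 and NC on slide 2, so slide and group cannot be told apart. No difference below was checked by a replicate, since each condition has 1 array, and precision is limited by that number. Of 10 markers of colon epithelium, 8 were above background on at least 1 array, while VIL1 and LGALS4 were not. Of 14 markers of fibroblasts, leukocytes and endothelium, the fibroblast marker COL1A1, 4 leukocyte and 2 endothelial markers were above background. The summed signal of each list ranged over the arrays from 369828 to 398106 for colon epithelium, from 366 to 495 for fibroblasts, from 201 to 337 for leukocytes and from 66.4 to 117 for endothelium. Single markers differed from NC by more than 1.5-fold: the leukocyte marker CSF1R was 4.66-fold and 3.97-fold lower in the knockdowns, and KRT20 of colon epithelium, not above background in NC, was at least 2.15-fold and 2.81-fold higher. By their brightest probes, the endothelial markers CDH5 and VWF were 1.62-fold and 2.11-fold higher in SMARCA4-KD2 and within 1.5-fold in SMARCA4-KD1. A second VWF probe was 1.88-fold lower in SMARCA4-KD1 and at least 2.57-fold lower in SMARCA4-KD2. Signals of these VWF probes were only 14.8 to 52.0, and no direction can be given for VWF. The part of these markers in the results was not tested.

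Wnt ligands are lipid-modified secreted proteins that bind Frizzled receptors together with LRP5 or LRP6. The bound receptors recruit Dishevelled, which holds back the destruction complex of APC, AXIN1, GSK3 and casein kinase 1, so that beta-catenin escapes degradation and drives TCF/LEF target genes. The pathway maintains the stem cells of the intestinal crypt and is activated by mutation in most colorectal cancers. Secreted inhibitors of the DKK and SFRP families act outside the cell, on the coreceptors or on the ligands. The question here was which of these genes HCT116 cells expressed, and how each differed between SMARCA4 knockdown and NC cells.

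A probe well above background on at least 1 array was found for 32 of the 47 genes: 11 of 17 ligands, both secretion genes, 8 of 10 receptors, both coreceptors, 1 of 8 secreted inhibitors, all 3 Dishevelled genes and all 5 genes of the destruction complex. Of all 43317 genes, 22620 had a probe above background on at least 1 array. The ligands with no probe above background on any array were WNT1, WNT2, WNT5A, WNT5B, WNT8B and WNT9A. The receptors FZD8 and FZD10 and the inhibitors DKK2, DKK3, DKK4, SFRP1, SFRP2, SFRP4 and SFRP5 were also not above background. The 18 probes of these 15 genes had signals between 3.27 and 17.2, and no fold is given for them. The inhibitors were thus the group with the fewest detected genes, and DKK1 was the only one of them detected on these arrays. The detected genes were the same on all 3 arrays with the exception of WNT7A, which was above background in NC and in neither knockdown.

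**Figure D1:**
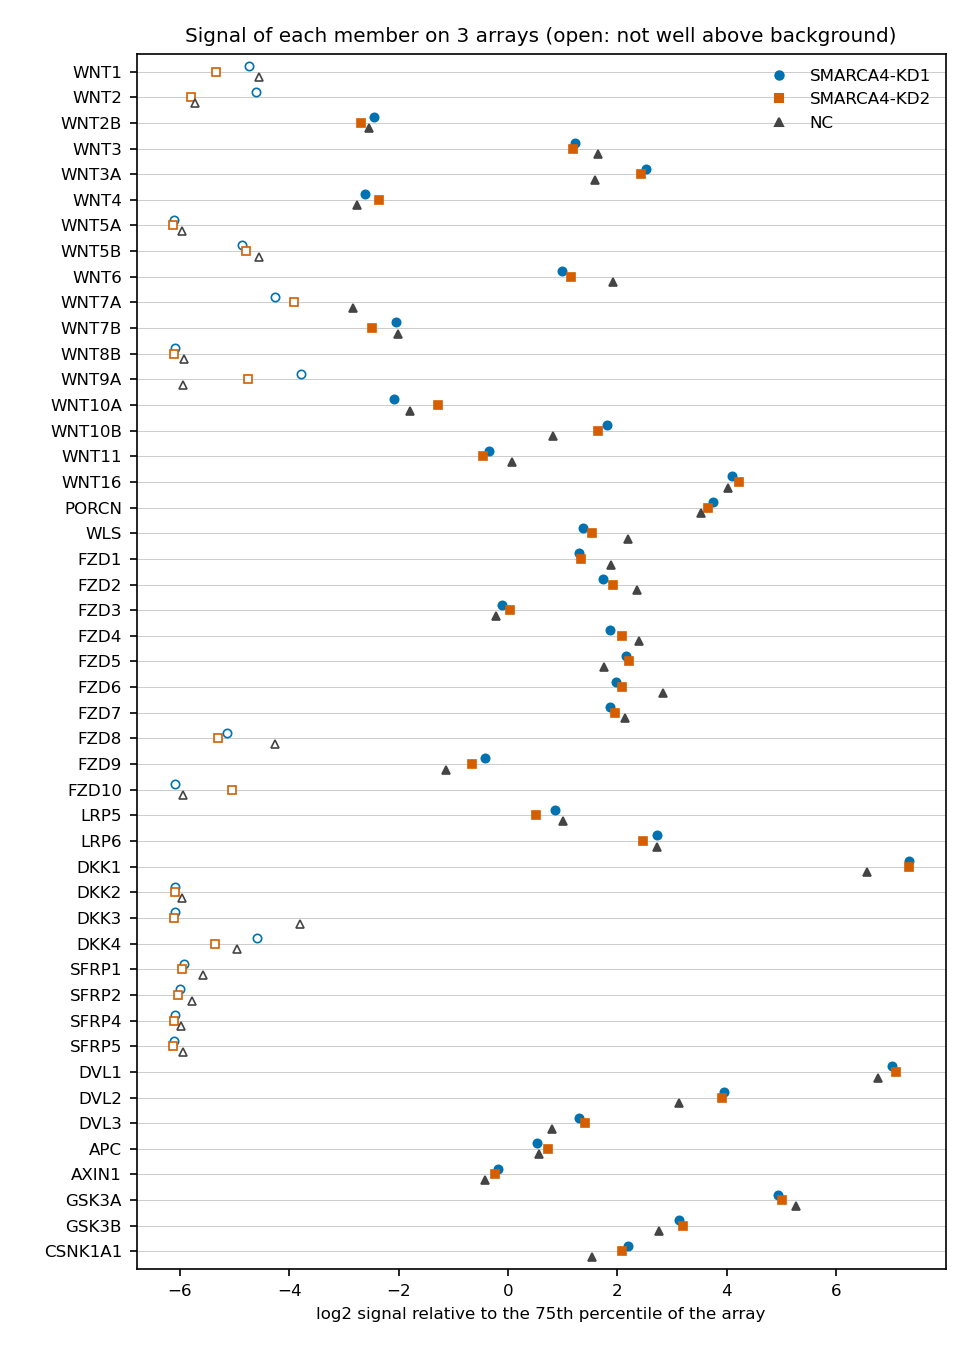
Signal of the 47 genes by array, 1 row per gene, as the log2 processed signal minus the 75th percentile of the array, for the brightest probe of each gene. Circles are SMARCA4-KD1, squares SMARCA4-KD2 and triangles NC, and open symbols are not well above background. Positions may be compared along a row and not between genes, since probes differ in brightness. The 15 genes with open symbols only include 7 of the 8 secreted inhibitors.

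The probes that carry the results are shown as their first 30 of 60 bases, as read from the array files, with no part in capitals. They are those of 7 genes at least 1.5-fold from NC in the same direction in both knockdowns and the other probes of WNT3A and WLS, which read different stretches of the same gene. The probe of FZD6, which was also past 1.5-fold in both, is not shown.

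WNT10B: tttggagccataagatctgtatctagaaag
WNT3A, brightest: ctctgcctcaaattctgcgtttttggtttt
WNT3A, other: catccccaaccccctgtaaggttccatcca
WNT6: tggaaaaaagccagtctaaaggcctctgga
WLS, brightest: cagtcacattgattgtacttgtatacgcac
WLS, second: ctctggtatgacacattttctgtgatcatt
WLS, dimmest: ctttgagcattgccctctttgggttctttt
DKK1: aataacaccttccaaaaacctggagtgtaa
DVL2: ttttttataagcctttttgggggttaaaat
WNT7A: agaacatgaagctggaatgtaagtgccacg

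Differences are given as log2 fold changes of a knockdown against NC after each array was scaled to its 75th percentile, for the brightest probe of a gene. Where 3 signals or 2 differences stand without a group they are in the order SMARCA4-KD1, SMARCA4-KD2, NC. The error beside a value is that of the extraction software and covers the measurement of the spots only. It is an estimate of that software, 0.20 for DKK1, WNT6 and GSK3B alike in SMARCA4-KD1. It is not a spread measured between repeats of a gene. Among the ligands, WNT10B and WNT3A were higher and WNT6 and WNT7A were lower in both knockdowns by at least 1.5-fold, while the other 7 detected ligands stayed within 1.5-fold in both by their brightest probe. WNT10B, a ligand of the beta-catenin pathway, was read at 393 in NC, 825 in SMARCA4-KD1 and 709.6 in SMARCA4-KD2. Each knockdown array was above NC, by 1.98-fold and 1.77-fold, log2 fold changes of 0.99 ± 0.20 and 0.82 ± 0.20. In hg19 the WNT10B probe spans chromosome 12 from 49359437 to 49359496. RNA was taken from whole cultures, so less RNA per cell and fewer cells with the RNA cannot be told apart for any gene.

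WNT3A, which also signals through beta-catenin, was read by a pair of probes. The brightest, on chromosome 1 from 228248893 to 228248952, was read at 674 in NC, 1356 in SMARCA4-KD1 and 1226 in SMARCA4-KD2. This probe was 1.90-fold and 1.78-fold higher than NC, log2 fold changes of 0.92 ± 0.20 and 0.83 ± 0.20. The other WNT3A probe, from 228247946 to 228248005, had signals of 67.8, 67.6 and 57.2, and its log2 fold changes were 0.16 ± 0.24 and 0.21 ± 0.23. Both probes were higher in the knockdowns, but the dimmer probe differed from NC by less than its error. With the mean of both probes WNT3A had log2 fold changes of 0.54 and 0.52, which is under 1.5-fold.

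WNT6, a ligand of epithelial and mesenchymal tissues, was read at 841 in NC, 471 in SMARCA4-KD1 and 506 in SMARCA4-KD2. It was 1.89-fold and 1.70-fold lower than NC, log2 fold changes of -0.92 ± 0.20 and -0.76 ± 0.20. Its probe lies on chromosome 2 from 219738852 to 219738911. WNT7A, known for its part in limb and reproductive tract development, was read at 31.2 in NC, 12.3 in SMARCA4-KD1 and 15.2 in SMARCA4-KD2. Its probe lies on chromosome 3 from 13860851 to 13860910. It was above background in NC alone, so it was at least 1.96-fold lower in SMARCA4-KD1 and at least 1.97-fold lower in SMARCA4-KD2, against the lowest level well above background on each knockdown array. With normexp background correction its log2 fold changes were -0.44 and -0.33, under 1.5-fold.

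WNT3 had log2 fold changes of -0.43 and -0.45, and WNT11, a ligand of the branch that works without beta-catenin, had -0.42 and -0.52. WNT16 had values of 0.08 and 0.21 and WNT2B of 0.10 and -0.14, so that WNT2B lay on either side of NC. WNT10A was the ligand with the largest gap between the knockdowns, at -0.29 ± 0.24 in SMARCA4-KD1 and 0.50 ± 0.23 in SMARCA4-KD2. Its signals were 64.6 in NC, 56.1 in SMARCA4-KD1 and 93.6 in SMARCA4-KD2. WNT7B gave -0.05 and -0.48 with its brightest probe and 0.11 and -0.06 with another. WNT4 had values of 0.14 and 0.39 by its brightest probe, with signals from 33.2 to 44.4, and -0.59 and -0.52 by its other probe, with signals from 32.7 to 46.4. These WNT4 probes disagreed in direction and were about as bright as each other, so no direction can be given for WNT4.

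Of the genes needed for ligand secretion, WLS was lower in both knockdowns and PORCN was within 1.5-fold of NC. WLS is the cargo receptor that carries lipid-modified Wnt proteins to the cell surface, and PORCN is the acyltransferase that adds the lipid. The brightest of 3 WLS probes, on chromosome 1 from 68564208 to 68564267, was read at 1024 in NC, 615 in SMARCA4-KD1 and 659 in SMARCA4-KD2. It was 1.76-fold and 1.59-fold lower than NC, log2 fold changes of -0.82 ± 0.20 and -0.67 ± 0.20. The dimmest WLS probe, from 68659545 to 68659604, had signals of 57.0, 49.8 and 94.7, and its log2 fold changes were -0.82 ± 0.23 and -0.96 ± 0.23. The second brightest, from 68591628 to 68591687, had signals of 385, 489.7 and 481, with log2 fold changes of -0.41 ± 0.20 and -0.01 ± 0.20. Thus 2 of the 3 WLS probes were at least 1.5-fold lower in both knockdowns, and the other one was at the NC level in SMARCA4-KD2. With the mean of its probes WLS was at -0.68 and -0.55, so that in SMARCA4-KD2 it was under 1.5-fold. PORCN had signals of 3184, 2885 and 2571 and log2 fold changes of 0.22 and 0.13.

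Among the 8 detected Frizzled receptors, 5 were lower and 3 were higher than NC in both knockdowns, and FZD6 alone was past 1.5-fold in both. For comparison, at any size of difference, 8617 of the 20970 genes with a fold lay below NC on each knockdown array, and 9307 lay above it. The split of the 8 receptors is thus not read as a tilt towards lower values. FZD6, a receptor known from planar cell polarity, was read at 1585 in NC, 934 in SMARCA4-KD1 and 962 in SMARCA4-KD2. It was 1.80-fold and 1.68-fold lower than NC, log2 fold changes of -0.85 ± 0.20 and -0.75 ± 0.20. FZD2 had signals of 789, 865 and 1138 and log2 fold changes of -0.61 and -0.43, past 1.5-fold in SMARCA4-KD1 only. FZD9 had signals of 176, 145 and 102 and log2 fold changes of 0.70 and 0.48, also past 1.5-fold in SMARCA4-KD1 only. FZD1 lay close to the threshold, at -0.58 and -0.55, and with the percentile taken over probes above background it was past 1.5-fold in both knockdowns. FZD4, at -0.53 and -0.32, and FZD7, at -0.27 and -0.17, were also below NC. FZD5, at 0.41 and 0.47, and FZD3, at 0.11 and 0.25, were above it. The coreceptors LRP5 and LRP6, which form the signaling complex with Frizzled, were within 1.5-fold of NC, LRP5 at -0.15 and -0.49 and LRP6 at 0.00 and -0.26.

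DKK1, the secreted inhibitor that blocks LRP5 and LRP6 and is itself a target of beta-catenin, was read at 21204 in NC, 38035 in SMARCA4-KD1 and 36643 in SMARCA4-KD2. It was 1.69-fold higher in each knockdown than in NC, with log2 fold changes of 0.76 ± 0.20 in both. Its probe lies on chromosome 10 from 54076687 to 54076746.

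All 3 Dishevelled genes, whose products link the receptors to the destruction complex, were higher in both knockdowns than in NC. So were 9307 of all 20970 genes, at any size of difference. DVL2, with a probe on chromosome 17 from 7128915 to 7128974, was read at 1955 in NC, 3633 in SMARCA4-KD1 and 3422 in SMARCA4-KD2. It was 1.75-fold and 1.71-fold higher, log2 fold changes of 0.81 ± 0.20 and 0.78 ± 0.20. DVL3 had signals of 584, 607 and 392 and log2 fold changes of 0.49 and 0.60, so that it was past 1.5-fold in SMARCA4-KD2 only. DVL1 was at 0.26 and 0.32 by its brightest probe and at 0.47 and 0.38 by its other probe, under 1.5-fold in each case.

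The genes of the destruction complex were all detected, and none was past 1.5-fold in both knockdowns. CSNK1A1, the casein kinase 1 that primes beta-catenin for degradation, had signals of 1088, 963 and 646 and log2 fold changes of 0.67 ± 0.20 and 0.54 ± 0.20, past 1.5-fold in SMARCA4-KD1 only. The kinase genes GSK3A and GSK3B lay on opposite sides of NC, at -0.33 and -0.26 for GSK3A and at 0.37 and 0.44 for GSK3B. GSK3B was read by 10 spots on each array, of which 9 were used in SMARCA4-KD1, and these spots varied by an SD between 0.03 and 0.04 on the log2 scale. The scaffold gene AXIN1 was at 0.24 and 0.19. APC, the scaffold whose loss starts most colorectal cancers, was at -0.04 and 0.16 by its brightest probe. The other APC probe was not above background in NC and was at least 1.15-fold and 1.43-fold higher in the knockdowns.

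**Figure D2:**
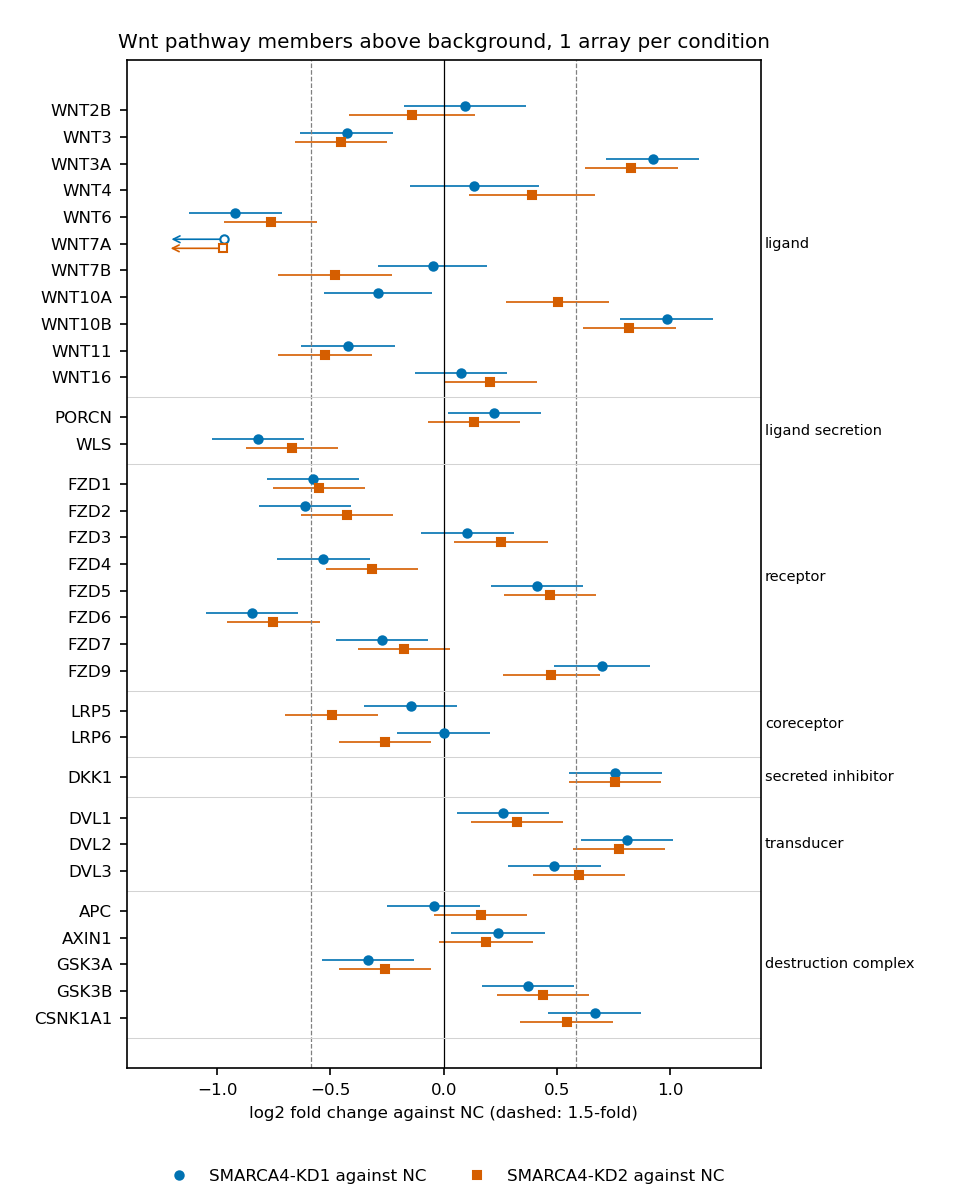
Log2 fold change of the 32 detected genes against NC, by role, with circles for SMARCA4-KD1 and squares for SMARCA4-KD2. Bars are the error of the extraction software, open symbols with arrows are limits (WNT7A), and dashed lines mark 1.5-fold. Points of both knockdowns lie past the same dashed line for WNT10B, WNT3A, DKK1 and DVL2 on the higher side and for WNT6, WNT7A, WLS and FZD6 on the lower side.

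In SMARCA4-KD1, 5 of the 32 detected genes were at least 1.5-fold lower than NC, where 12.7% of all genes with a fold were, and 6 were higher, where 11.7% of all genes were. These are 15.6% and 18.8% of the 32. In SMARCA4-KD2, 4 genes were lower against 10.2% of all genes, and 5 were higher against 10.6% of all genes. These are 12.5% and 15.6% of the 32. In both knockdowns, 4 of the 32 genes were lower, or 12.5%, against 8.66% of 20970 genes, and 4 were higher, or 12.5%, against 6.86%. With 4 genes in each direction these shares are not read as a result about the pathway, and no test was made on them. WNT7A, counted as lower in each case, was kept through NC alone and so could only count as lower. With the filter on all arrays, 3 of 31 members were lower in both and 4 were higher. The shares of all genes were then 7.49% and 6.78%. No member was past 1.5-fold in opposite directions in the knockdowns. The detected members had a median log2 fold change of 0.04 for SMARCA4-KD1 and 0.15 for SMARCA4-KD2, beside 0.02 and 0.04 for all genes. Both comparisons share the NC array, so that their values are not independent of each other. Between the knockdown arrays, which share a slide, the log2 levels of the 31 genes above background on all arrays differed with an SD of 0.22, and those of all 19497 such genes with an SD of 0.25.

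**Figure D3:**
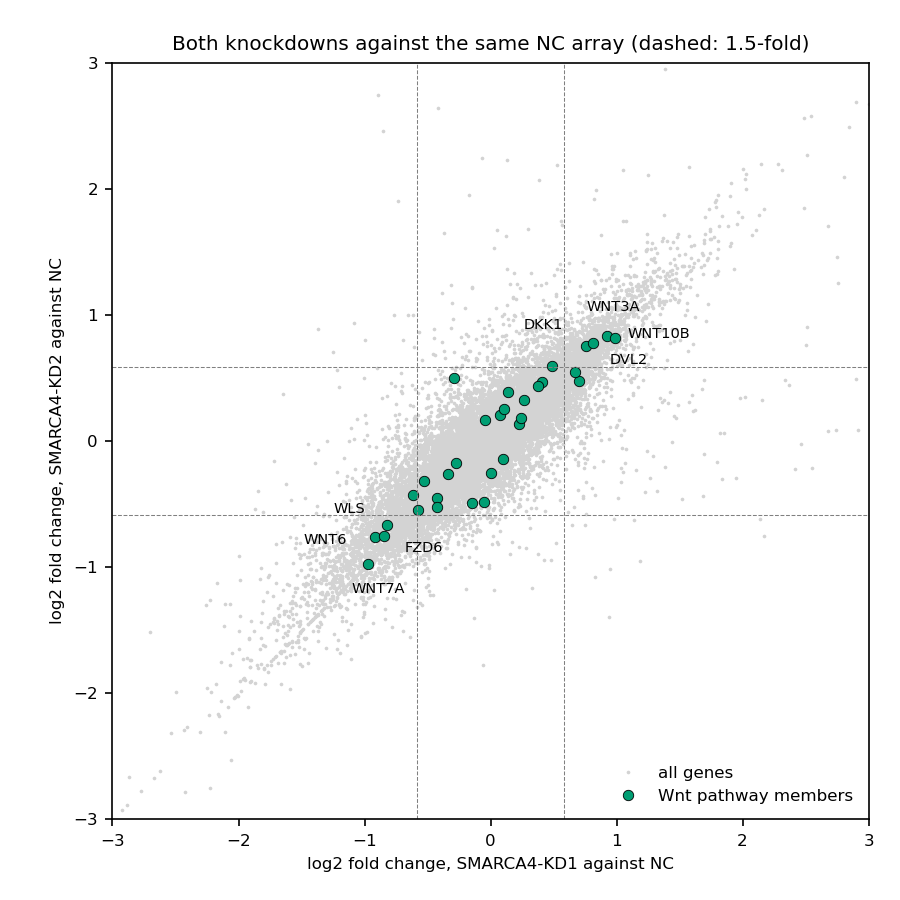
Log2 fold change of SMARCA4-KD2 against that of SMARCA4-KD1, both against the same NC array, for 20953 genes in grey and the 32 detected Wnt pathway genes in green, with 17 further genes outside the axes. Dashed lines mark 1.5-fold, and the 8 named genes lie past them in the same direction in both, with WNT7A drawn at its limit. Both axes share the NC array, so their values are not independent.

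**Figure D4:**
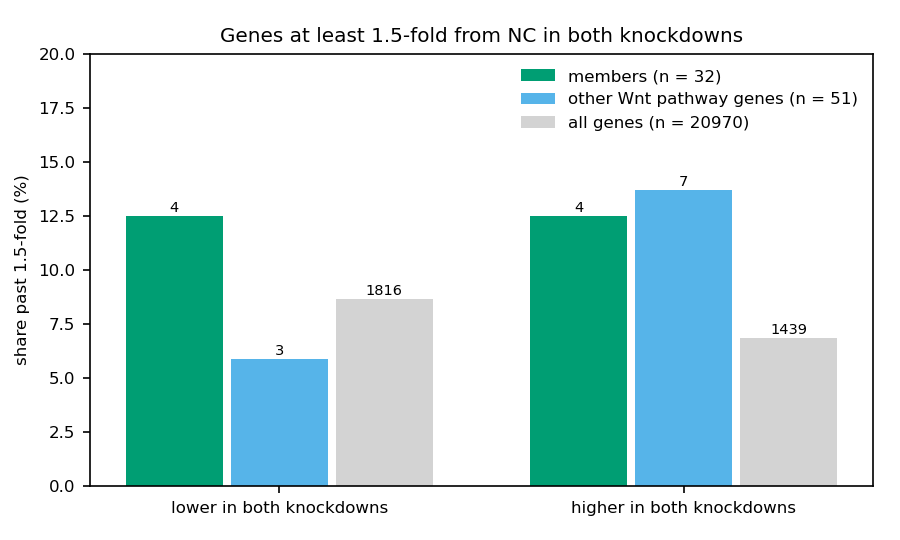
Share of genes at least 1.5-fold from NC in the same direction in both knockdowns, in percent of genes with a fold in both, with the number of genes over each bar. The bars stand for the 32 detected members, 51 other Wnt pathway genes and all 20970 genes, and they start at 0. The members are at 12.5% in each direction, each bar being 4 genes. The lower bar includes WNT7A, which was above background in NC alone.

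With limma 3.58.1 the 2 knockdown arrays were also set against NC as 1 group, with 1 residual degree of freedom. The spread then comes from the knockdown arrays alone, and the lone NC array is assumed to vary as much as they do. The knockdown arrays share a slide and NC lies on another, so this spread leaves out any difference between slides. After Benjamini-Hochberg adjustment limma called 0 of the 32 genes and 0 of all 22620 genes, a share of 0%, at an adjusted p of 0.05. The smallest adjusted p among the 32 genes in limma was 0.0939. At an unadjusted p under 0.05, limma gave 19 of the 32 genes, 9 lower and 10 higher, and 30.7% of all genes, while the methods' t-test gave 5 of the 32 and 14.2% of all genes. WNT7A is among the 9 lower genes, but both of its knockdown values were raised to the floor of their arrays, so that its spread between knockdowns was not measured. By their brightest probes, 31 of the 32 members were above background on all arrays, against 19497 of all 22620 genes. Shares of members passing, here and in the fit below, are not read as a result about the pathway. The limma call depended on the filter on dim probes, and also on the normalization and the background correction. When limma was run on the 19504 genes with a probe above background on all arrays, 14 of 31 members passed an adjusted p of 0.05, and so did 26.5% of all genes tested. No p is given by gene from that fit. NC is 1 array there too, and the genes past 1.5-fold were picked on these same arrays.

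Of the 47 genes, 38 had 1 probe and 9 had more. For 6 of these 9 at least 2 probes gave a fold in both knockdowns. All such probes had 1 sign in both knockdowns for WNT3A, WLS and DVL1, and not for WNT4, WNT7B and APC.

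**Figure D5:**
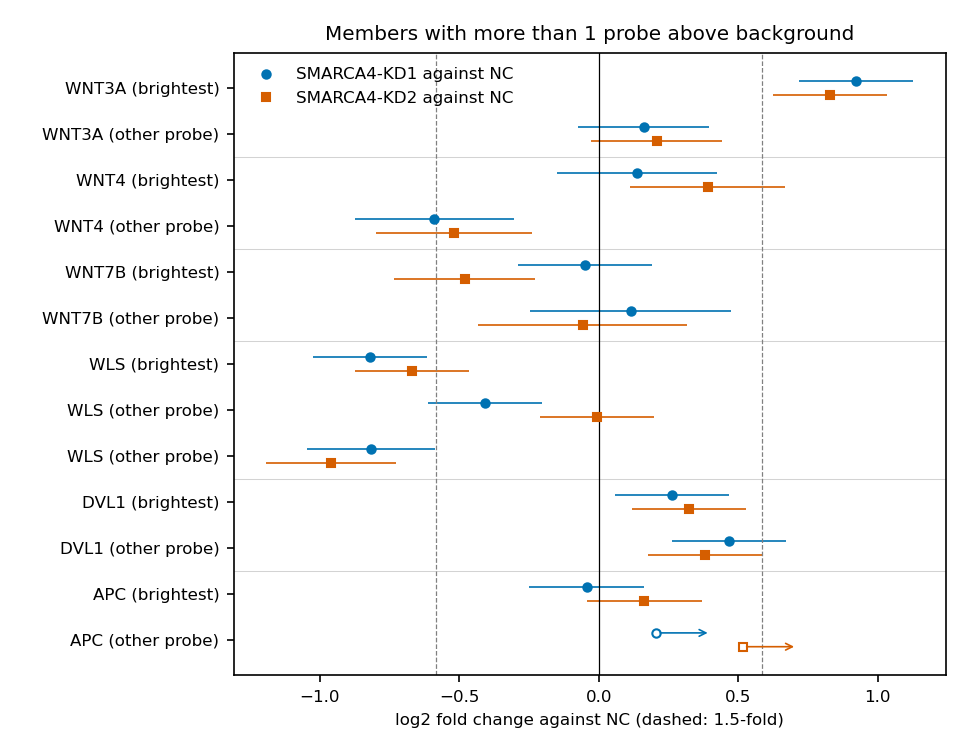
Log2 fold change of each probe for the 6 genes with at least 2 probes that gave a fold in both knockdowns, circles for SMARCA4-KD1 and squares for SMARCA4-KD2. Bars are the error of the extraction software, open symbols with arrows are limits, and dashed lines mark 1.5-fold. The probes of WNT4 lie on opposite sides of 0, and the brightest WNT3A probe lies past 1.5-fold where the other does not.

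Several ligand genes are neighbours on the genome, and their values are set side by side. WNT6 and WNT10A, whose probes are 19.5 kb apart on chromosome 2, were at -0.92 and -0.76 for WNT6 and at -0.29 and 0.50 for WNT10A. WNT10B was higher in both knockdowns, while WNT1, whose nearest probe is 15.7 kb away on chromosome 12, was not above background on any array. Likewise WNT3A was higher and WNT9A, with a probe 138 kb away on chromosome 1, was not above background.

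The promoter windows of the RefSeq table (GRCh38.p14) were matched by symbol for 34 of the 47 genes, in 41 windows from 250 bases before to 50 bases after a gene's start. The TCF/LEF motif ATCAAAG, searched on both strands, was in 0 of these 41 windows and in 2.62% of all 35116 windows. It was in 1.70% of the 16435 windows of genes kept on the arrays. With shares this small, 0 of 41 windows is not read as a lack of the motif. The median number of CpG dinucleotides was 30 in the 41 windows and 14 in all windows. All windows include those of genes not detected on the arrays, and no CpG count was made for kept genes alone. The higher median is thus not read as a trait of these genes. Of the 8 genes past 1.5-fold in both knockdowns, DKK1, DVL2, WLS, WNT3A, WNT6 and WNT7A had 7 windows with 15 to 49 CpG dinucleotides, and FZD6 and WNT10B were not matched. The 250 bases before the start of 1 gene that was higher and 1 that was lower are shown as examples, with each CpG in capitals. The DKK1 stretch is chr10:52314031-52314280 on the plus strand and holds 18 of them, and the WNT6 stretch is chr2:218859555-218859804 on the plus strand and holds 32. These letters are a description of the sequence and say nothing of what binds there.

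DKK1 promoter: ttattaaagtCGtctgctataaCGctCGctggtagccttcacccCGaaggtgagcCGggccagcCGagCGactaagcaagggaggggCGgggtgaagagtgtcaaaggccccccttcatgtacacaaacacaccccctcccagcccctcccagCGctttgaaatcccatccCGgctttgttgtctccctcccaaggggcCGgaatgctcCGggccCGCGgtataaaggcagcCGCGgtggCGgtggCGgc
WNT6 promoter: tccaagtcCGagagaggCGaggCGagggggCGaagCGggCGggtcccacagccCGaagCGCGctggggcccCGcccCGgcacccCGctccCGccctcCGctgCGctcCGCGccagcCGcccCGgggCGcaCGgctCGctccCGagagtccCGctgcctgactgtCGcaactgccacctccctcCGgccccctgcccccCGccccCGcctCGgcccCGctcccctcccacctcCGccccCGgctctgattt

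A further list of 66 genes of the pathway, written by role, was set beside the members. Of these, 65 had a probe, 53 were above background on at least 1 array and 51 had a fold in both knockdowns. At least 1.5-fold in both, 3 were lower, or 5.88%, and 7 were higher, or 13.7%, beside the 8.66% and 6.86% of all genes. With each probe counted on its own, 9 probes were lower and 7 were higher, so the balance between the directions depended on which probes were counted. The lower genes were FRZB, a secreted Frizzled-related protein, at -2.07 and -1.30, LGR4, a receptor for R-spondins, at -0.90 and -0.90, and DAAM1, a formin of the planar polarity branch, at -0.79 and -0.70. FRZB was read at 348 in NC, 88.0 in SMARCA4-KD1 and 145 in SMARCA4-KD2. Among the higher genes, DACT1, which binds Dishevelled, was at 1.91 and 1.57 with signals of 1953, 1491 and 489.8, and APC2, a homologue of APC, was at 1.83 and 1.78 with signals of 339.8, 316 and 89.9. NKD1, an inhibitor that also binds Dishevelled, was at 0.90 and 0.94, and CSNK1G1, a casein kinase 1 gamma gene, was at 0.94 and 0.99. RSPO4, a ligand of LGR receptors, was at 0.66 ± 0.31 and 0.71 ± 0.30, with low signals of 44.9, 44.9 and 26.8. ROR1, a receptor for WNT5A, was at 0.68 and 0.72, and TCF7L1, a TCF family repressor, was at 0.64 and 0.84. APC2, CSNK1G1, DACT1 and NKD1 belong to the cytoplasmic regulators, of which 18 were detected, 4 were higher and 0 were lower in both. These 4 are 22.2% of the role, beside 6.86% of all genes. Each other role had at most 1 gene in a direction, and no result about a role is read from such counts. CTNNB1, the beta-catenin gene, was within 1.5-fold of NC by both of its probes, at 0.07 and -0.13 by the brightest and at 0.42 and 0.38 by the other. AXIN2, a target of beta-catenin and a negative regulator of it, was at -0.07 and -0.36 by its brightest probe and at 0.26 and -0.39 by the other. LEF1 was not above background on any array, and of the R-spondin genes only RSPO4 was.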

How the data were processed

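Total RNA of HCT116 cells was labelled with Cy3 and hybridized to Agilent arrays with 1 colour, 1 array per condition. The authors extracted the deposited intensity values with Agilent Feature Extraction 10.7.1.1, with background subtraction and detrending and without normalization between arrays. A deposited series-level table held the same intensity values within 0.1% for the 56 member probes with 1 spot. Control spots and outlier spots were left out, repeated spots were averaged as log2 values, and the 75th percentile of each array over all non-control probes was subtracted. A value not well above background was raised, where it lay under it, to the array's lowest value among well measured probes, and folds against it are limits. No fold is given where both arrays were below background. A probe needed 1 array above background, and the brightest stood for each of 22620 genes. The threshold of 1.5-fold follows the study's methods. Both knockdowns were compared with NC by limma 3.58.1 (R 4.3.3). Other values were computed with Python 3.11.15 and pandas 2.3.3.

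Members, lists and tests were chosen with earlier results of these data known. By rule, all 47 members are accounted for by role, those past 1.5-fold in both knockdowns are given in full, and those past it in 1 knockdown or in roles of 5 or fewer members by both log2 fold changes, with up to 4 examples from other roles. Other pathway genes are named where past 1.5-fold in both. The remaining ligands and receptors and CTNNB1, AXIN2, LEF1 and the markers were named after their values were seen. Probe positions and names are those of the array files (hg19). The array files do not say whether a probe lies in a coding or an untranslated stretch. The siRNA sequences are not reported here. The steps were tested on simulated arrays with genes changed at known folds. All simulated arrays had the detection flags of NC, so limits such as that of WNT7A were not tested. Alternatives were quantile normalization, normexp (offset 50), a percentile from detected probes, probes detected on every array, all probes unfiltered, values left unraised, probe means, single probes, the series-level table and a threshold of 2-fold.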

Additional observations from a re-analysis of the deposited data

How the results depend on the processing

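The 8 genes past 1.5-fold in both knockdowns were the same under quantile normalization, without a filter, without a floor, with each probe on its own and with the series-level table. Filter and floor do not alter the values of genes above background on all arrays. The count by probe keeps a gene if any of its probes passes, and the series-level table holds the same intensities. These settings, apart from quantile normalization, could thus hardly remove such a gene. With the percentile over probes above background FZD1 joined them. WNT7A was lost with normexp and had no value with the filter on all arrays, where its probe is left out. WLS and WNT3A were lost with the mean over probes. At a 2-fold threshold 0 members were lower and 0 higher, in either knockdown or in both, and of the other pathway genes 1 was lower and 2 were higher in both. Counted by probe, 9 probes of the other pathway genes were lower and 7 higher in both. With normexp, 2 of the other pathway genes were lower and 5 higher in both. The median log2 fold change of the members was -0.15 in both knockdowns without a filter, where all genes had a median of -0.15 as well because values set to the lowest level above background differ between arrays, and with the mean over probes it was 0.035 for SMARCA4-KD2. At an adjusted p of 0.05 limma called 14 of 31 members and 5174 genes with the filter on all arrays, 9 members and 2651 genes with quantile normalization, and 12 members and 3601 genes with normexp, while 0 members and 0 genes were called without the intensity trend or by the methods' t-test. At an unadjusted p under 0.05, 19 members and 6954 genes passed. No member reversed its direction under these settings among those past 1.5-fold in both. No paired analysis was possible because each group holds 1 array. Signal over background limits WNT2B, WNT4, WNT7A, WNT7B and WNT10A, whose signals were under 100 on each array, and leaves 15 members without a value. Among the other pathway genes past 1.5-fold in both, RSPO4 also had signals under 100 on each array.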
